A study of Solanum lycopersicum with 24 samples.

Results

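The subject here is what happened to transcript levels in tomato hairy root tips in which SlWRKY71 (Solyc02g071130), a WRKY transcription factor gene, was targeted with CRISPR/Cas9. Hairy roots are roots that grow from tissue transformed by Rhizobium rhizogenes and are then kept in culture. Slwrky71-ko lines 4 and 5, each a hairy root line carrying Cas9 and guide RNAs against SlWRKY71, were compared with a control line transformed with an empty vector. The members were the 3 libraries of line 4, the 3 libraries of line 5 and the 3 control libraries, 9 of 24 libraries in the series, and the lines were given equal weight. All libraries came from cultivar M82. Plates with 3% sucrose were held without light at 25 °C, and after 9 days each library was made from the end 1 cm of 10 roots. The other 15 libraries came from SlWRKY71-OX, SlMYB41-OX and SlMYB92-OX, which express the gene with a FLAG tag from the constitutive 35S promoter, and from Slmyb41-ko and Slmyb92-ko. The labels name 1 line for the control, so a difference from the control includes whatever sets that 1 line apart, and the p-values measure the spread between root samples within lines.

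WRKY proteins bind a short DNA element called the W box and are best known as regulators of plant responses to pathogens, wounding and nutrient or water stress, often acting on each other's genes. SlMYB41, SlMYB92 and SlWRKY71 were studied together, and MYB proteins of this kind are known to activate the synthesis of suberin, the barrier polymer built from fatty acid and phenolic units in the walls of some root cell layers. The question of the comparison, as the series states it, is which transcripts change across the genome when the factor is knocked out.

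Levels are given as CPM, a library's counts scaled to a common total with factors from the trimmed mean of M values (TMM), in the order of the libraries named below. A gene is called changed at a Benjamini-Hochberg adjusted p under 0.05 in edgeR's quasi-likelihood test over 18297 genes tested. The 9 libraries held 4852464 to 10934301 estimated counts. The deposited identifiers carry no gene names. Symbols used here were recalled for 143 loci in 14 gene lists. Of the 143 symbols, 105 are in the RefSeq gene table of assembly SLM_r2.1 on the chromosome that the identifier gives, 34 are not in that table, and 4 are on another chromosome and are not used. For 98 of the 105 the locus is in the deposited table, and 396 of 397 pairs on the same chromosome (99.7%) have the same order in both. Where a symbol matched more than 1 gene on the chromosome, the nearest in place was taken, so this order is partly built in. The check covers position only, and the symbols are plausible but not annotated names. Among the genes described below, the symbols SlWRKY71, SlMYB41, SlMYB92, SlASFT, SlGPAT4, HCT, C3H, JAZ1, NR, IAA14, GA3ox2, GID1a, HAK5 and CYCD3.1 were checked against no table. Of the root genes, FER, an iron uptake regulator, stood at 283 to 514 CPM in the 9 libraries, the stele-made root patterning factor SHR at 2.54 to 10.9 CPM and its partner SCR at 1.22 to 4.42 CPM. The photosynthesis genes RBCS1 and RBCS2, taken as marks of shoot tissue, stood at 0.282 to 5.73 and 0.130 to 2.86 CPM. The symbols SHR, SCR, RBCS1 and RBCS2 were also checked against no table. None of these 5 genes was called between the knockout lines and the control.

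The SlWRKY71 transcript was low in every control and knockout library. Control libraries 2, 3 and 5 stood at 1.99, 1.59 and 1.13 CPM, line 4 libraries 2, 3 and 4 at 3.15, 1.06 and 2.08 CPM, and line 5 libraries 2, 3 and 5 at 1.45, 4.3 and 0.456 CPM. Both lines overlapped the control, with a log2 fold change of 0.37 for the lines averaged (SE 0.68; adjusted p = 0.75). Without library 3 of line 5 the value was -0.17 (adjusted p = 0.9). Transcripts of a gene with an edited sequence remain countable, and this level neither shows nor denies the loss of a working protein. In SlWRKY71-OX the same locus stood at 5.21, 41.5 and 26.2 CPM, above all 9 libraries. The other targets were close to 0: SlMYB41 had 1 count over the control libraries and 1 and 12 in lines 4 and 5, and SlMYB92 had 2, 0 and 3.

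With the lines averaged, 2655 of 18297 genes tested were called (14.5%), 1401 higher (7.66%) and 1254 lower (6.85%) than in the control. Of these 2655, 841 were called in neither line by itself. All 1401 higher genes and 1252 of the lower genes (6.84%) had the same sign in both lines, an outcome that calling on the average of lines with a shared control largely fixes. The remaining 2, Solyc03g114970 and Solyc09g015085, were lower in line 5 and not in line 4. Of all called genes, 561 rose by more than 1 on the log2 scale and 763 fell by more than 1. The median called rise was 0.88 and the median called fall -1.14, while the median over all genes tested was -0.01. In 1172 of the called rises and 1035 of the called falls, all 6 knockout libraries lay outside the range of the 3 control libraries, an ordering that 10.7% of all genes tested showed upward and 10.5% downward, called or not. The count with the same sign was 772 without control library 5, 1164 without control library 3 and 1657 without library 4 of line 4. Without any 1 of the other 6 libraries it was 1890 to 2779, with 1954 for control library 2.

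**Figure D1:**
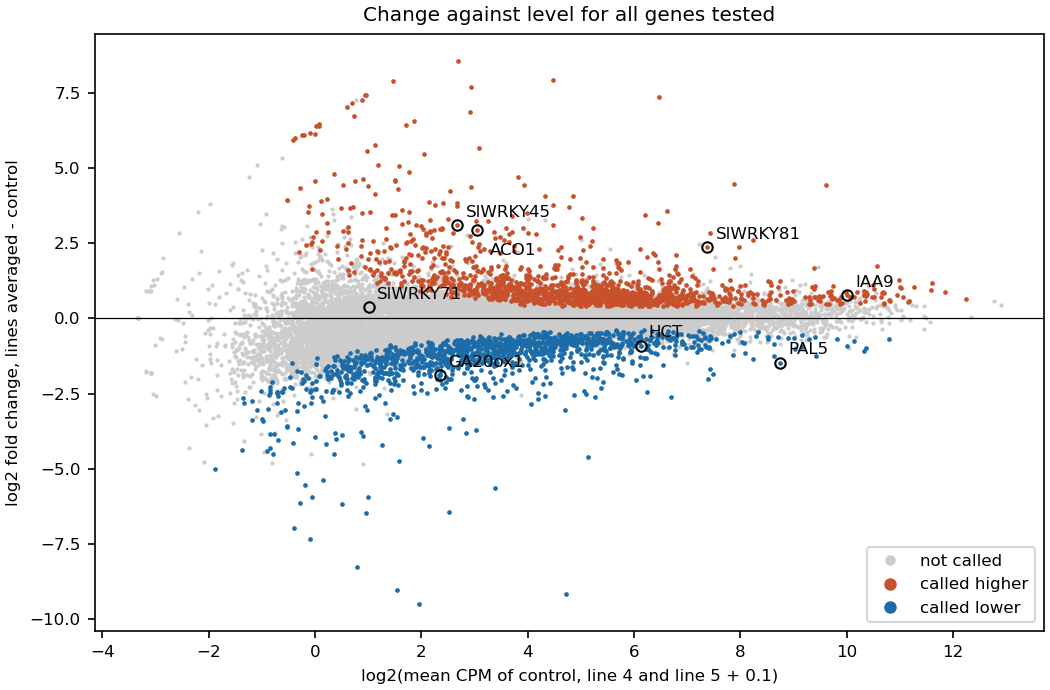
Log2 fold change of the lines averaged against the control (vertical axis) by the log2 of the mean CPM over control, line 4 and line 5 plus 0.1 (horizontal axis), 1 point per gene tested. The 1401 called rises are red, the 1254 called falls are blue and genes not called are grey. Circles mark genes described in the text, with SlWRKY71 at 0.37 and not called.

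Taken separately, line 4 had 1266 called genes (6.92%), 766 higher (4.19%) and 500 lower (2.73%), and line 5 had 1425 (7.79%), 829 higher (4.53%) and 596 lower (3.26%). Called in each line in the same direction were 772 genes (4.22%), 475 higher (2.6%) and 297 lower (1.62%). No gene was called in opposite directions. The 772 became 161 without control library 5, 264 without control library 3, 194 and 309 without libraries 4 and 2 of line 4, and 403 and 435 without libraries 3 and 5 of line 5. Line 4's count became 222, 249, 406 and 411 without its library 4, control library 5, its library 2 and control library 3. Line 5's count became 455, 541, 549 and 745 without control library 5, its library 3, control library 3 and its library 5. Because the lines share their control libraries, this count is not a test of agreement. A direct comparison of line 5 with line 4, which does not use the control, called 10 genes (0.0547%), 5 in each direction (0.0273%). Fitting each comparison on its own groups only moved line 4 to 1477 calls with 648 higher and 829 lower, and the averaged comparison to 2528 with 1108 higher and 1420 lower, so the balance of rises and falls depends on that choice.

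Since there is 1 control line, the knockout lines were also compared with the 4 groups that target SlMYB41 or SlMYB92, weighted equally. Against these, 1667 genes were higher (9.11%) and 1064 lower (5.82%). Called in the same direction against both references were 739 higher (4.04%) and 529 lower genes (2.89%). Both comparisons use the same knockout libraries, so this overlap is partly built in and is not a test of agreement. The value against this second reference is given below for each listed gene called with the lines averaged, and these groups carry changes of their own.

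Some other WRKY genes were among the rises. Of 14 tested members of a list of stress-related WRKY genes, 4 rose, none fell and 10 were not called, where 7.66% of all genes rose. In pooled root tips, a change in the share of a cell type and a change of RNA per cell cannot be told apart. The list's median was 0.30 against -0.01 over all genes. SlWRKY81 (Solyc09g015770) stood at 38.2, 26.8 and 64.8 CPM in the control, at 233, 132 and 202 CPM in line 4 and at 255, 279 and 261 CPM in line 5. Every knockout library lay above every control library, and the lowest of the 6 was library 3 of line 4. The log2 fold change was 2.37 (SE 0.34; adjusted p = 0.00022), with 2.12 in line 4 and 2.61 in line 5, each called. Against the groups that target SlMYB41 or SlMYB92 it was 1.61 (adjusted p = 2.2e-05), and the call held in 16 of 16 alternative settings.

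SlWRKY80 (Solyc03g095770) had 17.5, 5.56 and 32.1 CPM in the control, 88.7, 58.6 and 77.3 CPM in line 4 and 115, 121 and 101 CPM in line 5. Its log2 fold change was 2.30 (SE 0.44; adjusted p = 0.0023), and 1.24 against the second reference (adjusted p = 0.0043). SlWRKY41 (Solyc01g095630) had 20.7, 10.8 and 24 CPM in the control, 59.3, 42.5 and 75.4 CPM in line 4 and 81, 65.3 and 84.2 CPM in line 5. Both genes were higher in 6 of 6 knockout libraries than in any control library. For SlWRKY41 the log2 fold change was 1.85 (SE 0.28; adjusted p = 0.00034), and 0.92 against the second reference (adjusted p = 0.0016). SlWRKY45 (Solyc08g067360), a gene known in tomato from work on root-knot nematodes, was lower in level, at 1.29, 0.159 and 1.32 CPM in the control, 10.2, 3.55 and 5.08 CPM in line 4 and 13.9, 14.5 and 6.69 CPM in line 5. It rose by 3.11 on the log2 scale (SE 0.80; adjusted p = 0.014), and by 1.47 against the second reference (adjusted p = 0.034). Taken by line, it was called in line 5 (adjusted p = 0.016) and not in line 4 (adjusted p = 0.06). Without control library 3 its adjusted p was 0.073, and without control library 5 it was 0.06.

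The level of these WRKY genes also differed among the other groups. SlWRKY81 averaged 109 CPM in SlMYB41-OX and 179 CPM in SlMYB92-OX, but 47.3 CPM in Slmyb41-ko and 31.9 CPM in Slmyb92-ko. SlWRKY80 averaged 73.5 and 84.7 CPM in the same overexpression groups and 25.1 and 14.9 CPM in the same knockouts. In SlWRKY71-OX, SlWRKY81 stood at 41.5, 37.7 and 43.4 CPM, SlWRKY80 at 24.7, 23.5 and 17.3 CPM, SlWRKY41 at 18.8, 16 and 14.4 CPM and SlWRKY45 at 0.723, 0.441 and 0.833 CPM. All 12 values lay within the range of the control libraries. The members with the highest levels among the uncalled, SlWRKY31 (Solyc06g066370) and SlWRKY6 (Solyc02g080890), had log2 fold changes of -0.13 (adjusted p = 0.72) and 0.17 (adjusted p = 0.6).

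**Figure D2:**
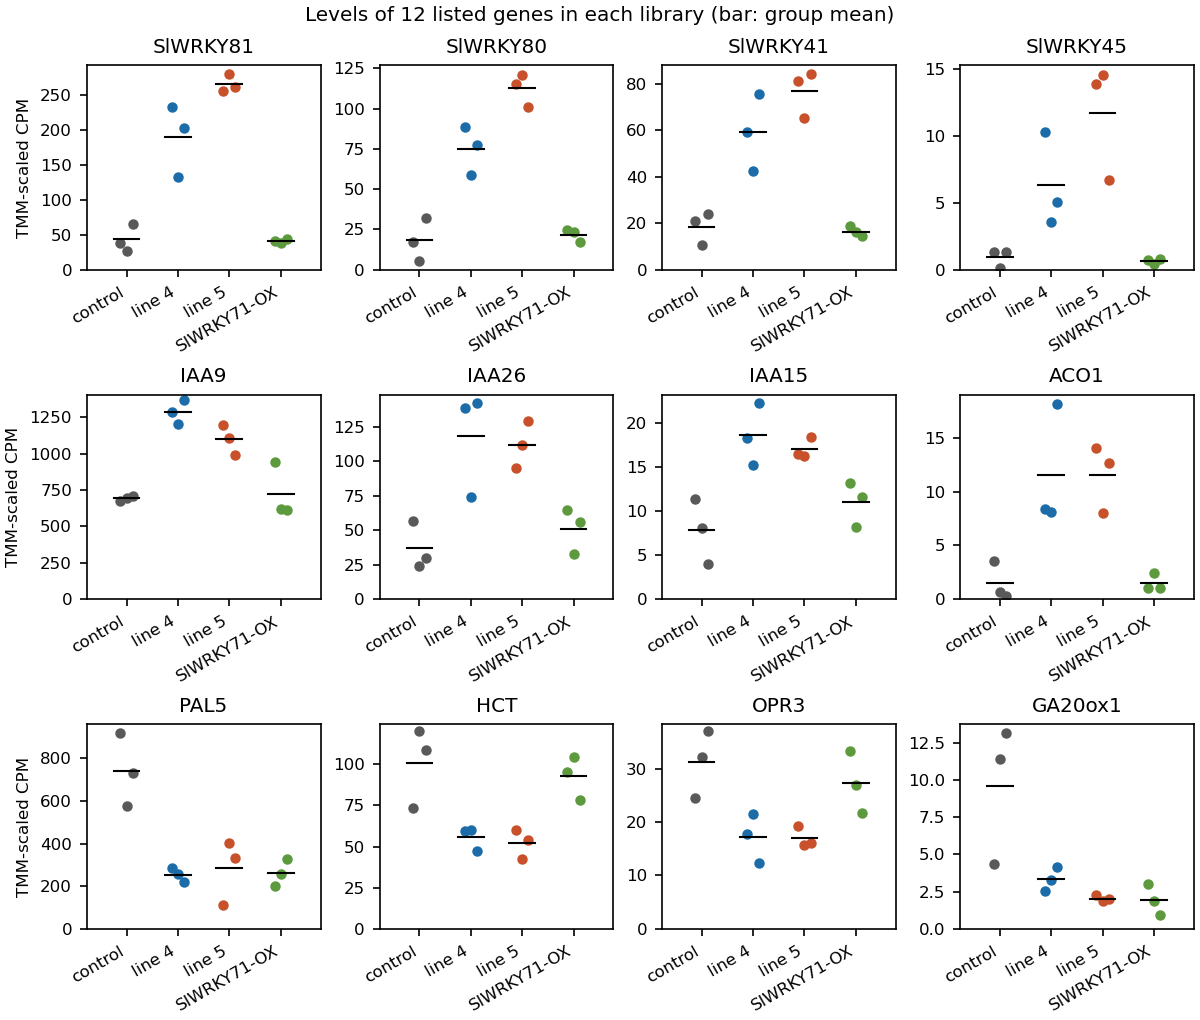
TMM-scaled CPM (vertical axis, linear, from 0) of 12 listed genes in each library of the control, line 4, line 5 and SlWRKY71-OX, with a bar at the group mean. In SlWRKY81, SlWRKY80, SlWRKY41 and SlWRKY45 all 6 knockout libraries lie above the control and SlWRKY71-OX, while PAL5 and GA20ox1 are low in the knockout lines and in SlWRKY71-OX alike.

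Aux/IAA genes, which encode repressors of auxin-responsive transcription and are themselves induced by auxin, were among the rises. Of 14 tested auxin genes, 7 encoding Aux/IAA repressors and the others PIN efflux carriers, 4 rose and none fell, where 7.66% of all genes rose, with a list median of 0.23 against -0.01 over all genes. All 4 were Aux/IAA genes, and 2 of them were also called against the second reference. IAA9 (Solyc04g076850), known in tomato for its part in leaf shape and fruit set, had 673, 696 and 710 CPM in the control, 1287, 1202 and 1366 CPM in line 4 and 1193, 1109 and 992 CPM in line 5. Every knockout library was above every control library. It rose by 0.78 on the log2 scale (SE 0.17; adjusted p = 0.0062), and by 0.41 against the second reference (adjusted p = 0.022). The groups of that reference averaged 719 CPM (Slmyb92-ko) to 1049 CPM (Slmyb41-ko), against 1285 CPM in line 4 and 1098 CPM in line 5.

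IAA26 (Solyc03g121060) stood at 56.6, 24.3 and 29.8 CPM in the control, at 139, 73.9 and 142 CPM in line 4 and at 94.8, 112 and 129 CPM in line 5. Its log2 fold change was 1.64 (SE 0.32; adjusted p = 0.0025), and 0.97 against the second reference (adjusted p = 0.003). IAA15 (Solyc03g120390) had 11.4, 8.1 and 4.04 CPM in the control, 18.3, 15.2 and 22.3 CPM in line 4 and 16.5, 16.2 and 18.4 CPM in line 5. Both genes kept all knockout libraries above the control. The rise of IAA15 was 1.19 (SE 0.29; adjusted p = 0.011), but it was not called against the second reference (0.37; adjusted p = 0.2) or without control library 5 (0.85; adjusted p = 0.1). IAA3 (Solyc09g065850) rose by 0.93 (SE 0.27; adjusted p = 0.027) with 1 knockout library inside the control range. Line 4 was called by itself (adjusted p = 0.027) and line 5 was not (adjusted p = 0.15). With the lines averaged, the adjusted p of IAA3 was 0.28 against the second reference. It was 0.055 to 0.18 without library 2 of line 4, library 3 of line 5, control library 3 or control library 5. IAA14 (Solyc09g083290) and IAA27 (Solyc03g120500), the uncalled members with the highest levels, had values of 0.27 and 0.08. Some rises were matched in Slmyb41-ko. It averaged 27.8 CPM of IAA15, above line 4 (18.6 CPM) and line 5 (17.0 CPM). For IAA3 it averaged 35.8 CPM, above line 4 (34.3 CPM) and line 5 (25.3 CPM). For IAA26 it averaged 65.8 CPM, below line 4 (118 CPM) and line 5 (112 CPM).

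Among phenylpropanoid genes, 2 of 11 tested fell and none rose, where 6.85% of all genes fell. The list's median was -0.16. PAL5 (Solyc09g007920) encodes phenylalanine ammonia-lyase, the entry enzyme of the pathway that makes lignin, flavonoids and the phenolics of suberin. It stood at 921, 577 and 733 CPM in the control, at 286, 256 and 221 CPM in line 4 and at 114, 405 and 333 CPM in line 5. All 6 knockout libraries lay below the control. The log2 fold change was -1.47 (SE 0.36; adjusted p = 0.011), with line 4 called by itself (-1.55; adjusted p = 0.037) and line 5 not (-1.39; adjusted p = 0.054). The fall was not called without control library 2 (-1.27; adjusted p = 0.053), and against the second reference it was -0.41 (adjusted p = 0.32). The means of PAL5 were 286, 315, 339 and 530 CPM in Slmyb41-ko, SlMYB41-OX, Slmyb92-ko and SlMYB92-OX, and SlWRKY71-OX stood at 200, 256 and 327 CPM. The control libraries were above these 4 means and the SlWRKY71-OX libraries. With an SD of 246 CPM, single libraries of SlMYB92-OX were not all below the control. PAL copies are close in sequence, and the split of reads between them is uncertain.

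HCT (Solyc03g117600), a hydroxycinnamoyl transferase on the route to lignin monomers, was lower against both references. It had 73.7, 121 and 109 CPM in the control, 59.3, 60.3 and 47.1 CPM in line 4 and 59.8, 42.6 and 53.9 CPM in line 5. The knockout libraries did not overlap the control. The log2 fold change was -0.91 (SE 0.16; adjusted p = 0.0012), and -0.74 against the second reference (adjusted p = 0.00033). In SlWRKY71-OX the gene stood at 95.3, 105 and 78.6 CPM. C3H (Solyc01g096670), the hydroxylase that acts with HCT, had -0.44 (adjusted p = 0.09), and HQT (Solyc07g005760), a transferase of chlorogenic acid synthesis, -0.16 (adjusted p = 0.64).

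Of 8 tested suberin, cutin and wax genes, none was called with the lines averaged, where 14.5% of all genes were, and their median was 0.40. All of them except SlCD2 had means of at most 4.57 CPM in the control and both lines. In line 5 by itself, where 4.53% of all genes rose and 3.26% fell, 2 rose and 1 fell. SlGPAT6 (Solyc09g014350), a glycerol-3-phosphate acyltransferase of cutin synthesis, had no count in the control and 2.58, 1.43 and 0.152 CPM in line 5 (adjusted p = 0.032). SlCER6 (Solyc02g085870), an elongase of very long fatty acids, stood at 0, 0.159 and 0.094 CPM in the control and 1.61, 0.409 and 0.76 CPM in line 5 (adjusted p = 0.045). SlCD2 (Solyc01g091630), a homeodomain regulator of cutin, fell from 16.7, 21.8 and 20.4 CPM to 10.3, 6.55 and 10.2 CPM in line 5, a log2 change of -1.11 (SE 0.28; adjusted p = 0.019). In the direct comparison of the lines none of the 3 was called, with adjusted p of 1, 1 and 0.86. Each of these calls was lost when 1 library was left out: adjusted p reached 0.12 for SlGPAT6 without control library 5, 0.15 for SlCER6 without library 2 of line 5 and 0.082 for SlCD2 without library 3 of line 5. SlASFT (Solyc03g097500), the feruloyl transferase of suberin, stood at 2.58, 4.13 and 1.22 CPM in the control, 1.42, 1.34 and 1.3 CPM in line 4 and 7.26, 5.53 and 0.912 CPM in line 5. Its averaged change of -0.03 (adjusted p = 0.98) joins -0.90 in line 4 and 0.83 in line 5. Against the second reference, which holds SlMYB92-OX with a mean of 160 CPM, it was lower (-2.23; adjusted p = 0.0042).

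Ethylene genes moved in both directions. Of 14 tested, 3 rose and 1 fell, where 7.66% and 6.85% of all genes did, with a median of 0.08. The 3 that rose encode ACC oxidases, which carry out the last step of ethylene synthesis. ACO1 (Solyc07g049530) had 3.51, 0.635 and 0.282 CPM in the control, 8.35, 8.06 and 18.1 CPM in line 4 and 14, 7.99 and 12.6 CPM in line 5. The lines did not overlap the control, and the log2 fold change was 2.95 (SE 0.64; adjusted p = 0.0049). The groups that target SlMYB41 or SlMYB92 averaged 4.23 to 19.5 CPM, and against them the value was 0.36 (adjusted p = 0.53).

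ACO4 (Solyc02g081190) rose by 0.89 (SE 0.28; adjusted p = 0.041) and ACO3 (Solyc07g049550) by 1.99 (SE 0.64; adjusted p = 0.041). ACO4 was called in neither line by itself (adjusted p = 0.13 and 0.056 in lines 4 and 5). ACO3 was called in line 5 (adjusted p = 0.033) and not in line 4 (adjusted p = 0.19). Neither gene was called against the second reference, with 0.38 (adjusted p = 0.18) for ACO4 and 0.52 (adjusted p = 0.4) for ACO3. The call of ACO4 was lost without any of 6 libraries, with adjusted p up to 0.19 (without control library 5), and that of ACO3 without any of 8, with adjusted p up to 0.17 (without control library 3). ACO1 and ACO3 are close paralogs, so their split of reads is uncertain. EIL2 (Solyc01g009170), a transcription factor of ethylene signalling, fell by 1.32 on the log2 scale (SE 0.36; adjusted p = 0.019), from 17, 26.5 and 41.6 CPM to 10.2, 14.8 and 10.5 CPM in line 4 and 12.3, 12.1 and 8.36 CPM in line 5. Its adjusted p was 0.17 without control library 5 and 0.087 against the second reference. EIL2 was called in neither line by itself (adjusted p = 0.077 and 0.056 in lines 4 and 5). The receptor gene NR (Solyc09g075440) and the signalling gene EIN2 (Solyc09g007870) had values of 0.05 and -0.34, neither called.

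**Figure D3:**
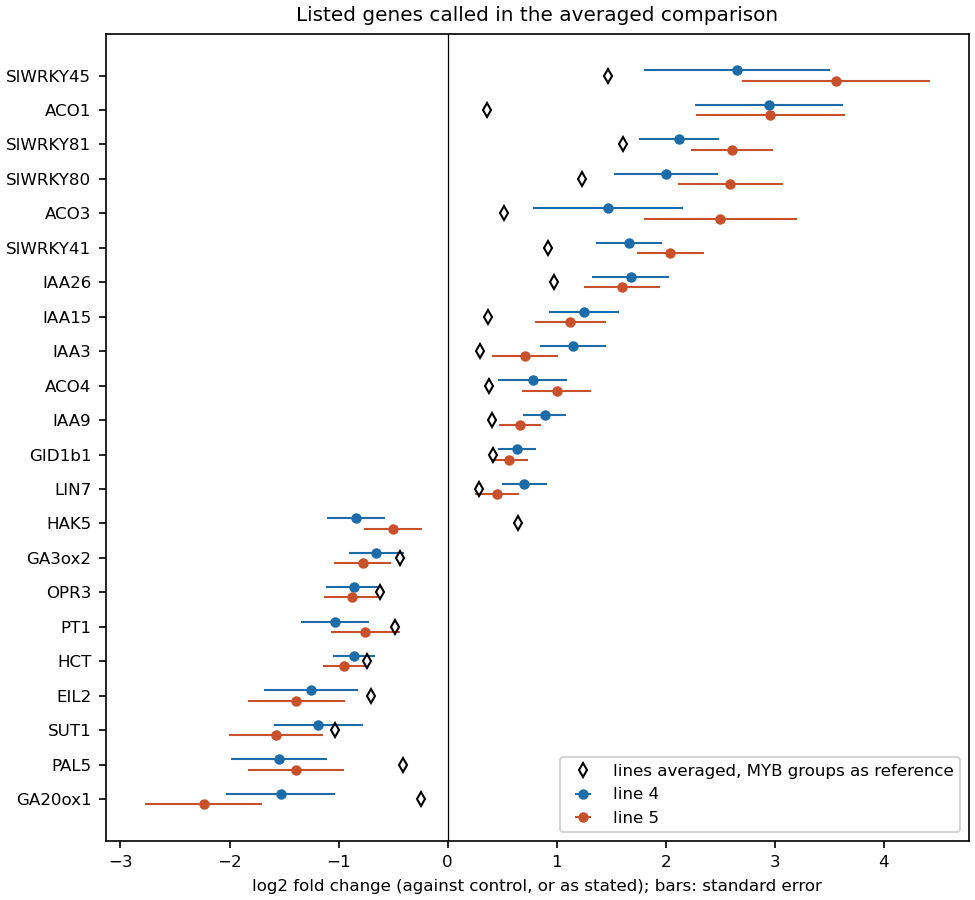
Log2 fold change of line 4 and of line 5 against the control for the 22 listed genes called with the lines averaged, with bars for the standard error, and diamonds for the lines averaged against the groups that target SlMYB41 or SlMYB92. Both lines lie on the same side of 0 in every gene shown, and the diamonds of ACO1, PAL5 and GA20ox1 lie near 0 while that of HAK5 is on the other side of it.

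Of 6 gibberellin genes tested, the receptor gene GID1b1 rose, the synthesis genes GA20ox1 and GA3ox2 fell and 3 were not called, where 7.66% of all genes rose and 6.85% fell. The list's median was -0.57. GA20ox1 (Solyc03g006880), an oxidase of the steps before the active hormone, had 4.33, 11.4 and 13.2 CPM in the control, 2.52, 3.26 and 4.17 CPM in line 4 and 2.26, 1.84 and 1.98 CPM in line 5. The knockout libraries were below the control, and the log2 fold change was -1.88 (SE 0.42; adjusted p = 0.006). It was not called without control library 5 (adjusted p = 0.06) or against the second reference (-0.24; adjusted p = 0.66). SlWRKY71-OX was as low, at 3.04, 1.88 and 0.937 CPM. In line 5 by itself GA20ox1 was called (adjusted p = 0.015), and in line 4 it was not (adjusted p = 0.065). GA3ox2 (Solyc03g119910), the enzyme that makes the active hormone, fell by 0.72 (SE 0.22; adjusted p = 0.031), a call lost without any of 7 libraries, with adjusted p up to 0.14 (without control library 2). Against the second reference it had -0.44 (adjusted p = 0.071). GA3ox2 was called in neither line by itself (adjusted p = 0.11 and 0.067 in lines 4 and 5).

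GID1b1 (Solyc09g074270) rose from 107, 93.4 and 109 CPM to 152, 137 and 191 CPM in line 4 and 141, 169 and 149 CPM in line 5. Its log2 fold change was 0.60 (SE 0.15; adjusted p = 0.013), and 0.42 against the second reference (adjusted p = 0.01). The adjusted p was 0.084 without control library 3 and 0.052 without control library 5. Its paralog GID1b2 (Solyc06g008870) had 0.61 and was not called (adjusted p = 0.06), and GID1a (Solyc01g098390) had -0.43 (adjusted p = 0.39).

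Of 7 jasmonate genes tested, OPR3 (Solyc07g007870), a reductase of jasmonate synthesis, fell and none rose, where 6.85% of all genes fell, with a median of -0.07. It stood at 24.6, 32.2 and 37.1 CPM in the control, at 17.8, 21.5 and 12.2 CPM in line 4 and at 19.2, 15.8 and 16.1 CPM in line 5, with no overlap. The log2 fold change was -0.87 (SE 0.21; adjusted p = 0.0098), and -0.62 against the second reference (adjusted p = 0.012). Without control library 5 its adjusted p was 0.075. The synthesis gene AOC (Solyc02g085730) and the repressor gene JAZ1 (Solyc07g042170) had 0.37 (adjusted p = 0.4) and -0.36 (adjusted p = 0.097).

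Of 9 sucrose genes, 1 rose and 1 fell, near the 7.66% and 6.85% of all genes, with a median of 0.17. SUT1 (Solyc11g017010), a sucrose transporter, fell by 1.38 on the log2 scale (SE 0.34; adjusted p = 0.012) and was also lower against the second reference (-1.03; adjusted p = 0.014). One knockout library lay inside the control range, and without control library 5 the adjusted p was 0.12. LIN7 (Solyc09g010090), a cell wall invertase, rose by 0.58 (SE 0.18; adjusted p = 0.037). This call was lost without any of 6 libraries, with adjusted p up to 0.2 (without control library 5). Against the second reference LIN7 had 0.29 (adjusted p = 0.12). By itself, line 4 showed no called fall of SUT1, and line 5 no called rise of LIN7. Of 5 tested ion transport genes, HAK5 (Solyc12g005670), a high-affinity potassium transporter, and PT1 (Solyc09g090070), a phosphate transporter, fell, by 0.67 (SE 0.22; adjusted p = 0.047) and 0.89 (SE 0.26; adjusted p = 0.028). The list's median was -0.52, and 6.85% of all genes fell. Neither HAK5 nor PT1 was called in line 4 or line 5 by itself. HAK5 lost its call without any 1 of the 9 libraries, with adjusted p up to 0.17 (without control library 5), and was higher than the second reference (0.64; adjusted p = 0.011). PT1 lost its call without library 4 of line 4, control library 3 or control library 5, with adjusted p of 0.067, 0.065 and 0.25, and had -0.48 against the second reference (adjusted p = 0.1).

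No member was called with the lines averaged in the lists of abscisic acid (6 tested, median 0.47), iron uptake (3 tested, median -0.05), defence (3 tested, median -0.16) and cell cycle genes (5 tested, median -0.50). Of all genes tested, 14.5% were called, and lists of 3 to 6 genes can hold none at that share. The members with the highest levels were AREB1 (Solyc04g078840; 0.18), a factor of abscisic acid signalling, and CYP707A2 (Solyc08g005610; 0.62), which breaks the hormone down. In the same place were FER (Solyc06g051550; 0.18), the metal transporter NRAMP1 (Solyc11g018530; -0.67) and the osmotin gene NP24 (Solyc08g080640; -0.46). CYCD3.1 (Solyc02g092980), a D-type cyclin, had -0.88 (adjusted p = 0.082) and CCS52A (Solyc08g080080), an activator of cyclin breakdown, -0.50 (adjusted p = 0.18).

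The largest changes belonged to loci without a name in the sources. Solyc08g044345 had 3 counts over the control libraries, and 37.5, 30.2 and 35.8 CPM in line 4 and 27.3, 31.7 and 36 CPM in line 5. With the counts of both lines pooled the ratio was 280 (95% counting interval 95.7 to 1360), and the lines averaged had an adjusted p of 4.2e-12. The means of the 4 groups that target SlMYB41 or SlMYB92 were 17.2 to 26.5 CPM, and SlWRKY71-OX stood at 27.5, 21.7 and 26.9 CPM, so the control was the group that stood apart. Solyc08g008540 had no count in the control, 19.9, 17.2 and 13.9 CPM in line 4 and 0.161, 0.819 and 5.17 CPM in line 5. With a floor of 3 counts over the control it was at least 143-fold higher in line 4 and at least 18.7-fold in line 5. With the counts of both lines pooled, and so not weighted equally, it was at least 91.0-fold higher. The comparison of the lines averaged gave it an adjusted p of 0.00026. The groups that target SlMYB41 or SlMYB92 averaged 13.4 to 24.1 CPM, SlWRKY71-OX stood at 2.31, 1.32 and 4.37 CPM, and against the former the sign turned (-1.60; adjusted p = 0.0057). These intervals and floors cover counting error only.

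Solyc01g096470 had 6.56, 8.26 and 19.4 CPM in the control, 314 counts in all, and no count in any of the 6 knockout libraries. With both lines pooled it was at least 173-fold lower, and the lines averaged had an adjusted p of 0.0033. The 4 other groups averaged 1.8 to 6.99 CPM with wide spreads (SD 1.57 to 6.06 CPM), and SlWRKY71-OX stood at 2.46, 8.61 and 8.02 CPM. The loss was shared by both knockout lines and seen in none of these groups' means, though single libraries of the 4 groups may be near 0. Within each line it was called, with adjusted p of 0.025 in line 4 and 0.03 in line 5, and these became 0.11 without library 4 of line 4 and 0.095 without control library 5. Solyc00g500191, on a sequence not placed on a chromosome, had 75.3, 82.1 and 76.7 CPM in the control and 2 and 3 counts in lines 4 and 5. Its log2 fold change was -9.17 (SE 1.59; adjusted p = 0.0011), and Slmyb41-ko was nearly as low, at 0.563 CPM on average. This locus varied widely within other groups. Slmyb92-ko averaged 61.8 CPM with an SD above that mean, and SlMYB92-OX averaged 30.1 CPM (SD 44.4 CPM). SlWRKY71-OX stood at 22.3, 301 and 127 CPM. Single libraries of Slmyb92-ko and SlMYB92-OX may thus be near 0, and their means set no firm contrast with the knockout lines. In line 4 by itself the adjusted p of Solyc00g500191 was 0.013, and 0.058 and 0.084 without library 2 and library 4 of that line.

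In line 5 by itself, Solyc07g056180 had 6.13, 7.17 and 1.98 CPM where the control had no count, at least 41.3-fold higher (adjusted p = 0.0027). Line 4 was also higher, at 5.52, 0.768 and 2.34 CPM, at least 21.2-fold, and SlWRKY71-OX had no count. The means of the other 4 groups lay between 0.0487 and 0.891 CPM, below the knockout lines (4.14 on the log2 scale; adjusted p = 0.00014). Solyc09g064273 had 11.4, 9.21 and 4.6 CPM in the control and no count in either knockout line, at least 47.1-fold lower in line 5 (adjusted p = 0.0018). It also had no count in the 4 groups that target SlMYB41 or SlMYB92, and 4.92, 2.1 and 3.64 CPM in SlWRKY71-OX.

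By position, chromosome 12 had the largest share of falls, 159 of 1209 genes tested (13.2%), where the other numbered chromosomes had 4.66% to 8.09%. They were densest in a run from Solyc12g088230 to Solyc12g096650, though 98 of the 159 lay in the rest of the chromosome. This run was picked after its values were seen, as 6 runs of 25 neighbouring loci, of 678 in the genome, in which the median of all 7 groups lay more than 0.3 below the control on the log2 scale. In it, 61 of 163 genes tested were called lower with the lines averaged (37.4%) and 3 higher, with a median of -0.71 (-0.65 in line 4 and -0.68 in line 5). Against the groups that target SlMYB41 or SlMYB92 the median was -0.05. The rule itself makes the stretch lower than the control in every group. The rest of chromosome 12 had 9.37% called lower, also above the 4.66% to 8.09% of the other numbered chromosomes. Without the run, 1398 genes rose and 1193 fell (6.58%).

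**Figure D4:**
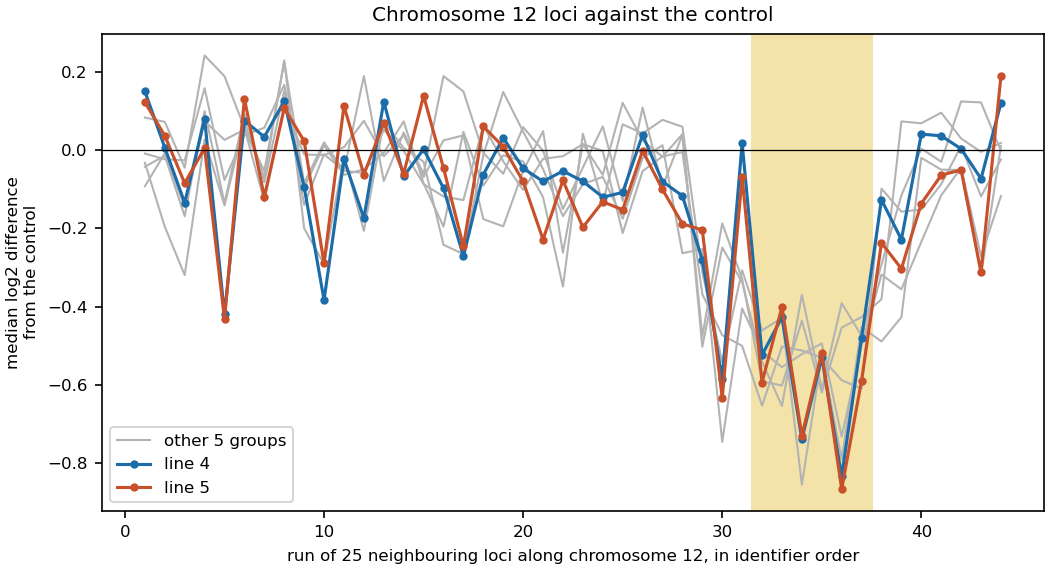
Median log2 difference from the control (vertical axis) in runs of 25 neighbouring loci in identifier order along chromosome 12 (horizontal axis), for line 4, line 5 and the other 5 groups in grey. In the shaded runs all 7 groups lie more than 0.3 below the control.

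Line 5 differed from line 4 in 10 genes (0.0547%), 5 higher and 5 lower, the count being 4 when only the groups compared were fitted, 26 with DESeq2 and 6 without library 5 of line 5. Solyc09g091630 had 0.315, 0.288 and 0 CPM in line 4 and 9.52, 7.78 and 14 CPM in line 5, with no count in the control. The difference was 5.58 on the log2 scale (SE 0.80; adjusted p = 0.0075), and its adjusted p was 0.052 to 0.066 when any library of line 4 or library 5 of line 5 was left out. Solyc12g010950 had 0.315, 0.672 and 0.13 CPM in line 4 and 8.23, 5.32 and 11.2 CPM in line 5, a difference of 4.35 (SE 0.64; adjusted p = 0.0064). Without library 2 or 4 of line 4 or library 5 of line 5 its adjusted p was 0.051 to 0.063. SlWRKY71-OX had 2.46, 4.19 and 2.91 CPM of this transcript and the control 1 count. Both loci were thus high in line 5 and at or near 0 in line 4.

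Other loci were present in line 4 and nearly absent from line 5. Solyc09g015085 had 11.3, 4.03 and 10.7 CPM in line 4, as in the control (3.28, 6.51 and 6.67 CPM), and 2 counts in line 5, a ratio of 70.8 (95% counting interval 19.3 to 589; adjusted p = 0.0036, and 0.051 without library 5 of line 5). Its means in the 4 groups that target SlMYB41 or SlMYB92 were 0.0221 to 0.193 CPM. Solyc09g089570 had 60 counts in line 4, 1 in the control and none in line 5, at least 14.5-fold lower (adjusted p = 0.022). Leaving out any library except library 3 of line 4 ended this call, with adjusted p up to 0.15 without library 5 of line 5. Means of this locus were 9.75 CPM in SlMYB41-OX and 5.59 CPM in Slmyb92-ko, above the 2.64 CPM of line 4. In Slmyb41-ko and SlMYB92-OX they were 0.09 and 0.092 CPM. Solyc03g114970, one of the genes whose sign differed between lines, stood at 34.2 to 60.5 CPM in line 4 and 6.77 to 19.1 CPM in line 5, against 32.9 to 44.3 CPM in the control.

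**Figure D5:**
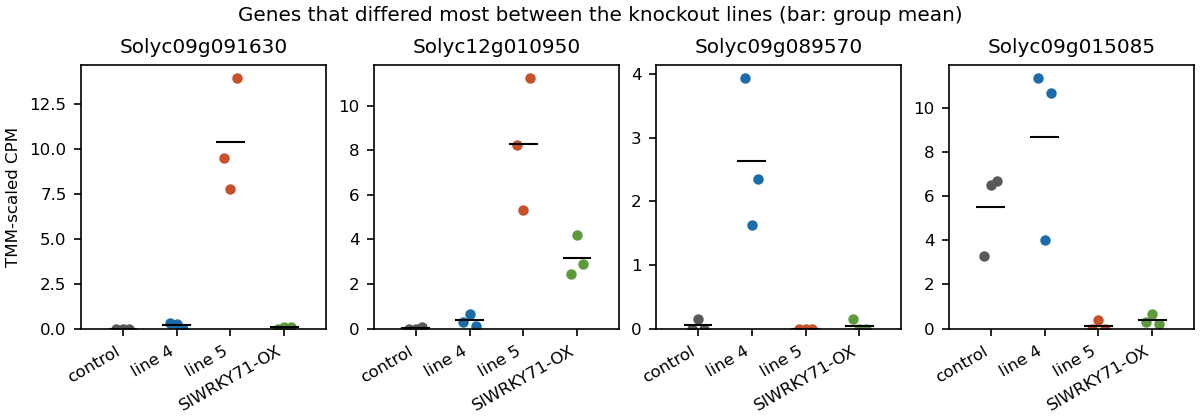
TMM-scaled CPM (vertical axis, linear, from 0) in each library for the 4 loci that differed most between the knockout lines, with a bar at the group mean. Solyc09g091630 and Solyc12g010950 are high in line 5 and near 0 in line 4, and Solyc09g089570 and Solyc09g015085 are at or near 0 in line 5.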

How the data were processed

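Per the labels' protocols, poly(A) RNA was random primed into unstranded libraries and read as 75 bp pairs. The deposited values are estimated counts of 1 transcript per locus, made by the authors (the submitters' processing notes name kallisto 0.46.2 and Trim Galore 0.6.6). The annotation was not given in the sources used here. Not whole were 6.18% of the values (tolerance 1e-09), and rounded values were tested. Reads of near-identical copies are split by estimation, and genes that overlap on opposite strands cannot be separated.

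Columns were assigned to groups by name, with 0 columns left over, and libraries are named by the number in the column, which is not the replicate number of the labels. The number of replicates in the labels' protocol is larger than the 3 libraries per group used. No libraries were duplicates: replicates differed by chi-square values of 13.0 to 39.0 per gene. Same-numbered libraries did not deviate together (correlations -0.339 to 0.296 in 7 pairs), so the numbers were not used to pair samples.

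Of 34688 transcripts, 6479 had no count in any library, and 18297 passed filterByExpr. All 24 libraries (4852464 to 15372241 estimated counts; TMM factors 0.909 to 1.12) entered 1 edgeR 4.0.16 quasi-likelihood fit (R 4.3.3, limma 3.58.1), 1 mean for each group, with a common dispersion of 0.0789, and adjusted p-values are Benjamini-Hochberg values over all genes tested. Standard errors are the size of the log2 fold change divided by the square root of F. There were 4 comparisons: the lines averaged, line 4 and line 5 against the control, and line 5 against line 4. In simulated data for the averaged comparison, with 17688 genes and changes in genes above 2 CPM only, the test found 32 of 100 true 2-fold changes and 98 of 100 true 4-fold changes and made 4 false calls. The simulated counts took the dispersion of the fit and the same mean in all groups for unchanged genes. The false calls there thus do not measure those in the real libraries. A group with no count takes a floor of 3 counts over the group, and 1 to 3 counts give a ratio with a 95% interval. Such folds pool the counts of the libraries compared, so over both lines they do not weight the lines equally.

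Named genes are the 3 targets, the 2 largest called rises and 2 largest called falls without overlap in each comparison, and from each list every called member and up to 2 uncalled members with the highest level. Symbols on another chromosome in RefSeq are left out, but their loci stay in the counts. The comparison, its members and the lists were chosen with earlier results of these data known. Alternatives were DESeq2 size factors, no filter, DESeq2 1.42.0, only the groups compared, glmTreat against a log2 fold change of 1, a block on the column number, the groups that target SlMYB41 or SlMYB92 as reference, and leaving out each library. An alternative without the chromosome 12 run was chosen after seeing the data.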

Additional observations from a re-analysis of the deposited data

Results flagged for a closer look

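The knockout lines, which carry the same target, differed from each other in the 4 loci named for that comparison, by a direct test of line 5 against line 4 (edgeR quasi-likelihood). Solyc09g091630 and Solyc12g010950 were higher in line 5, by 5.58 and 4.35 on the log2 scale. Solyc09g089570 and Solyc09g015085 were lower in line 5, with fitted log2 differences of -7.35 and -6.04. In the last of these, line 4 was near the control and line 5 near the other groups.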

How the results depend on the processing

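The count of 2653 genes called with the lines averaged and of the same sign in both was 2619 with DESeq2 size factors, 2199 without a filter, 3344 with DESeq2, 2528 with only the groups compared, 1952 with a replicate block on the column number, 2727 with the groups that target SlMYB41 or SlMYB92 as reference (1266 genes shared) and 2589 without the chromosome 12 run, and 119 with glmTreat. Counts that moved by more than 1.5 times were as follows. Line 4 (1266) gave 2100 with DESeq2, 70 with glmTreat and 565 with the block. Line 5 (1425) gave 863 with only the groups compared and 113 with glmTreat. Line 5 against line 4 (10) gave 21 without a filter, 26 with DESeq2, 4 with only the groups compared and 5 with the block. Genes called in both lines (772) were 1267 with DESeq2, 47 with glmTreat, 425 with the block and 476 with the other reference. The numbers do not pair the samples, so the values with the block are given here only. Leaving out 1 library gave 772 to 2779 for the lines averaged, 222 (library 4 of line 4) to 1489 for line 4, 455 (control library 5) to 1071 for line 5, 6 to 10 between the lines and 161 (control library 5) to 771 for both lines. SlWRKY71 ranged from -0.17 to 0.60 when 1 library was left out. With the other reference the sign turned in Solyc08g008540 (-1.60; -0.10 in line 4), Solyc09g089570 (-2.15), Solyc09g015085 (3.74), SlCER6 (-0.54), SlMYB41 (-1.24), SlWRKY31 (0.090), AOC (-0.47), IAA14 (-0.16), HAK5 (0.64) and NP24 (0.084). Among uncalled genes, leaving out 1 library turned the sign in SUS3 (-0.0054 to 0.27), NR (-0.026 to 0.12), SlASFT (-0.43 to 0.39), SlGPAT4 (-0.42 to 0.077), IAA27 (-0.010 to 0.13), SlMYB92 (-1.28 to 1.76) and IAA14 (-0.12 to 0.68). The cause was not tested. For named genes that were called, 523 of 685 values under alternatives kept the direction and the call, 158 lost the call and 4 reversed. Genes near 1 CPM, SlWRKY71 among them, allow no firm statement at this depth.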
